A study of Homo sapiens with 9 samples.

Results

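FLT4 and the other genes of the vascular endothelial growth factor (VEGF) receptor family were followed in the cell line HAL-01, which was derived from a B cell acute lymphoblastic leukemia with the TCF3::HLF fusion. The family comprised 9 of the 62700 genes in the files, taken by symbol: the receptors FLT4, FLT1 and KDR, the co-receptors NRP1 and NRP2, and the ligands VEGFA, VEGFB, VEGFC and PGF. FLT4 was chosen by its measured rise in the enhancer KO libraries over the control, so that difference is given as a description, without a test. The other 8 genes were taken because they belong to the same family.

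Bulk RNA was sequenced in 9 libraries, all from HAL-01 cells that stably expressed Cas9 and GFP and all collected on day 13. The groups, of 3 libraries each, were named sgRNA_96, sgRNA_97 and SCR1. The genotype of the first 2 groups is given as MEF2C Enhancer KO, meaning that a single guide RNA (sgRNA) was directed at the enhancer of MEF2C that TCF3::HLF binds, and SCR1 cells received a scrambled guide. The replicates carried the numbers 1, 3 and 4 in each group, and the labels do not say whether they came from separate cultures, so the p-values measure only the spread between these libraries. Comparisons set all 6 KO libraries, and those of each guide in turn, against the same 3 SCR1 libraries. The share of edited cells was not analysed here. In bulk RNA, fewer cells of a kind and less RNA per cell cannot be told apart.

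VEGF ligands are secreted dimers that bind receptor tyrosine kinases on the cell surface. FLT1 (VEGFR1) binds VEGFA, VEGFB and PGF, KDR (VEGFR2) carries most of the growth signal of VEGFA in blood vessels, and FLT4 (VEGFR3) binds VEGFC and VEGFD and is best known for the growth of lymphatic vessels. The neuropilins NRP1 and NRP2 present these ligands to the receptors and also bind class 3 semaphorins. FLT1 is made as a full-length receptor and as shorter secreted forms that hold the ligand-binding part but lack the membrane anchor and the kinase, and these bind ligand without signalling.

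The study's guides to the enhancer region show which bases were targeted. They are printed 5′ to 3′ with the letters TTACATAA in capitals, a site of the kind that PAR bZIP factors such as HLF bind.
E.1: tagcaTTACATAAtacatgt
E.2: ttagcaTTACATAAtacatg
E.3: tcaaagttcttggaacagga
Guide E.1 matched chr5:88825103-88825122 on the minus strand of hg38, E.2 matched chr5:88825104-88825123 on the same strand, and E.3 matched chr5:88825164-88825183 on the plus strand. Each had 1 exact match on chromosome 5, next to GGG, TGG and AGG respectively, and all 3 lay in an intron of MEF2C. FLT4 is on the same chromosome, 91.8 Mb away. E.1 and E.2 span the HLF motif, which is the target named for the guides of these libraries, and E.3 lies downstream of it. How the labels sgRNA_96 and sgRNA_97 map onto E.1 and E.2 is not given in the sources used here. With a flank of 50 kb on either side of FLT4 and FLT1, no site next to NGG matched any of the guides with 3 or fewer mismatches. The closest sites had 6 mismatches at FLT4 and 5 at FLT1.

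The 3′ ends of the FLT1 messages are shown because most FLT1 counts fell on the short forms. The shared coding bases are in lower case. In each short form, capitals mark the bases that depart from the full-length form, up to and including the stop codon. In FLT1-201, capitals mark bases that depart from FLT1-207 only, as FLT1-204 shares them.
FLT1-207: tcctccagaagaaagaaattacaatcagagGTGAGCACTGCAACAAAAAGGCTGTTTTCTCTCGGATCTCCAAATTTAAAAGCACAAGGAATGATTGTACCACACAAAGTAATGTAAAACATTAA
FLT1-201 at the same place as FLT1-207: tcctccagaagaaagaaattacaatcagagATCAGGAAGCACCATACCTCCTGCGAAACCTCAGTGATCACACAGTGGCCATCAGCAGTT
FLT1-204: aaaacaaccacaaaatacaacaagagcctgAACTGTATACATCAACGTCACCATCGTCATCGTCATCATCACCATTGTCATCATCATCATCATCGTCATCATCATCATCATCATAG
In FLT1-207 the capitals lie at chr13:28389701-28389795 on the minus strand of hg38 (GENCODE release 44), where the exon runs on into intron 13 of the full-length transcript. They add 30 residues before the stop, for a protein of 687 residues. In FLT1-204 the capitals lie at chr13:28368578-28368663, in an exon within intron 14 of the full-length form, and add 27 residues to a total of 733. The full-length form FLT1-201 splices on to chr13:28384972-28385031 and encodes 1338 residues.

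Library totals ranged from 15212462 to 29777361 estimated counts. MEF2C, the gene of the targeted enhancer, was measured at 536 to 560 CPM (counts scaled to a library of 1000000) in SCR1 and at 495 to 510 CPM in 5 of the 6 KO libraries, while sgRNA_97 replicate 1 stood at 552.8 CPM, within the SCR1 range. Its log2 fold change was -0.12 (SE 0.04, adjusted p = 0.0620, quasi-likelihood test of edgeR), and without sgRNA_97 replicate 1 it was -0.14 (adjusted p = 0.0143). The cells carried the markers of B lymphoblasts: 11 of the 12 genes of that list had mean levels of 63.5 CPM or more in both SCR1 and KO, MME (CD10) at 468 ± 14.2 CPM (SD, n = 3) in SCR1, while CD34 had 1 or 2 counts per SCR1 library. T cell and erythroid markers had no gene that passed it.

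Of the 9 family genes, 6 passed the filter and entered the test: FLT4, FLT1, NRP1, NRP2, VEGFA and VEGFB. KDR and VEGFC had 0 counts in all 9 libraries, which allows a level of up to 0.101 to 0.197 CPM depending on depth (3 counts per library, counting error only). PGF had 2 to 11 counts per library and was not tested. Among all 14436 genes tested, 20.7% differed between KO and SCR1 at an adjusted p under 0.05, 10.1% higher and 10.6% lower, and in 20.3% the KO and SCR1 values did not overlap. Apart from FLT4, 1 of the 5 tested family genes, FLT1, passed the test. That share is close to the share of all genes, so it does not set the family apart.

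FLT4 (ENSG00000037280.16, chr5:180601506-180649624, minus strand) was measured at 32.01, 30.5 and 29.9 CPM in the SCR1 libraries. It reached 67.5, 67.2 and 62.2 CPM with sgRNA_96, and 56.4, 62.1 and 66.0 CPM with sgRNA_97. Every KO library lay above every SCR1 library, and the SCR1 values were close together. The mean was 30.8 ± 1.08 CPM (SD, n = 3) in SCR1 and 63.6 ± 4.24 CPM (SD, n = 6) in KO. The fitted log2 fold change was 1.04 (SE 0.06), a fold of 2.06 with a 95% interval from 1.88 to 2.26. As FLT4 was chosen for this rise, the interval, which comes from the SE of the edgeR fit, is a description and not a test. Choosing a gene for its rise favours a high estimate. With sgRNA_97 replicate 1 left out the log2 fold change was 1.07. Of the genes tested, 196 had a larger log2 fold change, and most of these were weakly expressed: among the 9572 genes with a mean of at least 10 CPM, 13 did.

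**Figure D1:**
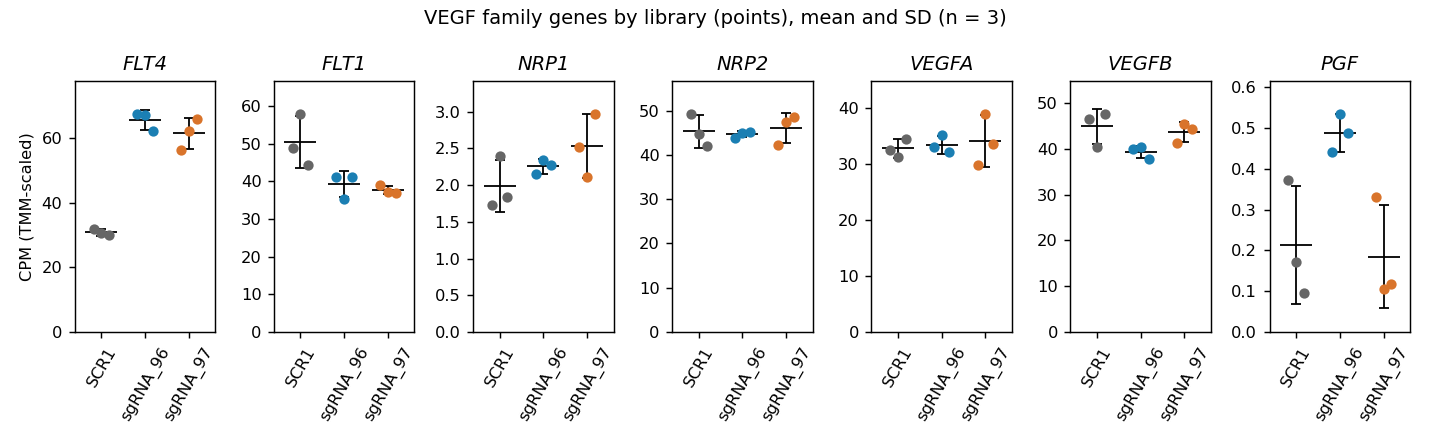
CPM of the 7 detected family genes in each library (points), with the mean and SD of each group of 3 libraries; each panel has its own axis, starting at 0. FLT4 lies at 29.9 to 32.01 CPM in SCR1 and at 56.4 to 67.5 CPM in the KO libraries, FLT1 lies lower in KO without overlap, and the other genes overlap.

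FLT4 was chosen for its rise over SCR1 and not for a difference between the guides. The same KO libraries entered that choice, so its comparison between the guides may not be independent of it. FLT4 was 2.13-fold SCR1 with sgRNA_96 and 1.99-fold with sgRNA_97, and sgRNA_97 differed from sgRNA_96 by -0.09 on the log2 scale (SE 0.07, 95% interval -0.24 to 0.05, adjusted p = 1.00, edgeR). None of the 6 tested family genes differed between the guides in edgeR, at an unadjusted p under 0.05 the count was also 0, and DESeq2 called 0. Between the guides 0.0208% of all genes passed the test, or 3 genes. Against SCR1, 11.2% of genes passed with sgRNA_96 and 15.1% with sgRNA_97.

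FLT1 (ENSG00000102755.13, chr13:28300346-28495145, minus strand) went the other way. It was measured at 49.0, 58.0 and 44.5 CPM in SCR1. The values were 41.3, 35.4 and 41.3 CPM with sgRNA_96 and 39.0, 37.3 and 36.9 CPM with sgRNA_97. All KO libraries lay below the lowest SCR1 library, and SCR1 replicate 3 stood highest. FLT1 fell by 0.39 on the log2 scale (SE 0.08, 95% interval -0.55 to -0.23, adjusted p = 0.00206), to a fold of 0.764. Both guides gave the fall, -0.36 with sgRNA_96 (adjusted p = 0.0196) and -0.42 with sgRNA_97 (adjusted p = 0.00747), each against the same SCR1 libraries. Without SCR1 replicate 3 the log2 fold change was -0.29 (adjusted p = 0.0158), and without sgRNA_97 replicate 1 it was -0.39 (adjusted p = 0.00358).

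With FLT4 higher and FLT1 lower, the ratio of the 2 genes, each summed over all its transcripts, turned. In TPM (transcripts per 1000000 transcripts), which accounts for transcript length, the FLT4 to FLT1 ratio was 0.811, 0.805 and 0.840 in the SCR1 libraries. It was 1.95, 2.47 and 1.98 with sgRNA_96 and 2.02, 2.21 and 2.11 with sgRNA_97. Summed over all transcripts, the more abundant gene was thus FLT1 in each SCR1 library and FLT4 in each KO library. Most of the FLT1 TPM lay in the short forms, 9.38 TPM in SCR1 against 2.61 TPM for the full-length form. The full-length FLT4-201 exceeded the full-length FLT1-201 in SCR1 already, at 6.04, 5.72 and 5.19 TPM against 2.68, 3.08 and 2.07 TPM. The turn thus holds for the summed genes and not for the full-length forms. The sum of the 2 genes was 22.1 ± 3.48 TPM (SD, n = 3) in SCR1 and 27.9 ± 1.55 TPM (SD, n = 6) in KO. The highest SCR1 sum, 26.0 TPM, lay just below the lowest KO sum, 26.6 TPM. As FLT4 enters both the ratio and the sum, neither was tested.

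**Figure D2:**
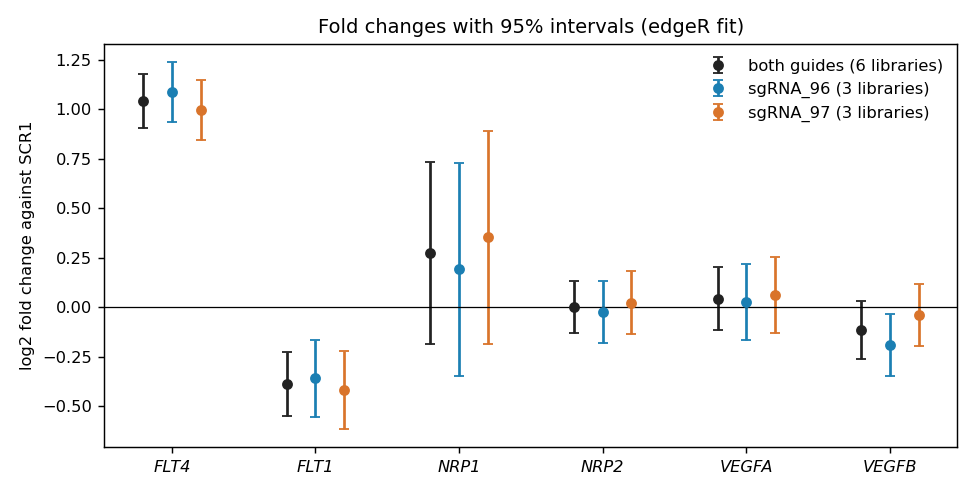
Log2 fold change against SCR1 of the 6 family genes that passed the filter, with 95% intervals from the edgeR fit, for both guides together (black), sgRNA_96 (blue) and sgRNA_97 (orange). FLT4 lies near 1.04 and FLT1 near -0.39, NRP1 has the widest intervals, and both guides share the SCR1 libraries. The intervals of FLT4, which was chosen for its rise, are a description and not a test.

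Salmon assigns reads to transcripts, and a single form carried most of the FLT4 counts. FLT4-201, with 30 exons and 1363 residues, held 81.1% of them over the 9 libraries, 80.9 ± 3.39% in SCR1 (SD, n = 3) and 81.1 ± 3.08% in KO (SD, n = 6). Its level was 6.04, 5.72 and 5.19 TPM in SCR1 and 10.6 to 13.1 TPM in the KO libraries, so the form that encodes the whole receptor was higher in each KO library. FLT4-207, a transcript with a retained intron and no annotated protein, held 13.2% of the counts and stood at 0.935 ± 0.163 TPM in SCR1 (SD, n = 3) and 2.07 ± 0.433 TPM in KO (SD, n = 6). The share of FLT4-207 overlapped between the groups, 9.95 to 14.9% in SCR1 and 9.47 to 16.5% in KO. The shorter coding form FLT4-202, of 1298 residues, held 1.82%, and FLT4-206, of 1306 residues, had 0 counts in all libraries.

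FLT1 counts fell mainly on the secreted forms whose ends are printed above. FLT1-207 held 59.3% of FLT1 counts, the full-length FLT1-201 held 26.4% and FLT1-204 held 13.7%. The short forms together made up 71.4 ± 2.597% in SCR1 (SD, n = 3; 68.6 to 73.7%) and 74.7 ± 3.29% in KO (SD, n = 6; 70.4 to 80.5%), which overlap. The full-length form had 2.61 ± 0.509 TPM in SCR1 (SD, n = 3) and 1.78 ± 0.184 TPM in KO (SD, n = 6), without overlap, its lowest SCR1 value being 2.07 TPM and its highest KO value 1.94 TPM. The short forms had 9.38 ± 1.72 TPM in SCR1 and 7.10 ± 0.793 TPM in KO, where the highest KO library, at 8.23 TPM, just passed the lowest SCR1 library, at 8.19 TPM. FLT1-207 shares 2254 of its 6502 bases with the full-length form, and FLT1-204 shares 2401 of its 2969. For reads on shared bases the split rests on how Salmon divides them, most of all for FLT1-204.

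**Figure D3:**
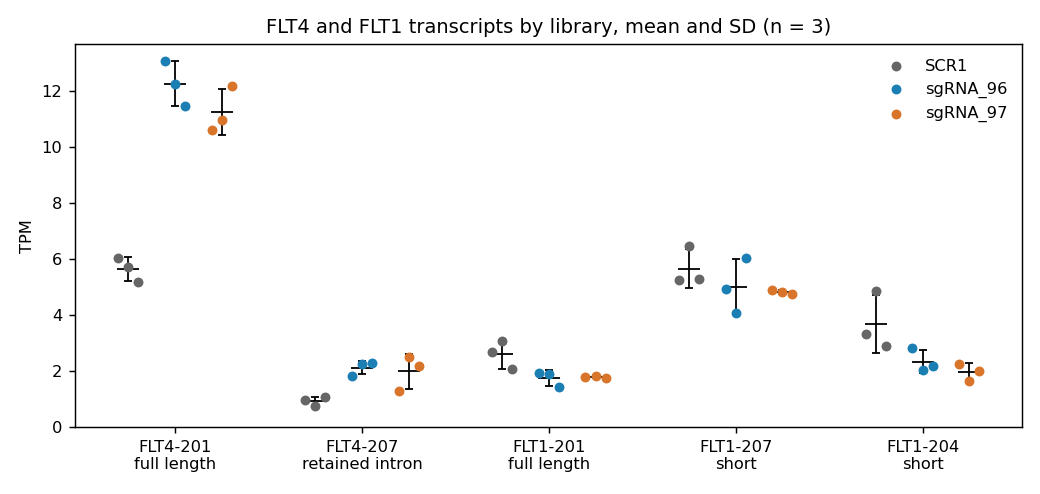
TPM of the main FLT4 and FLT1 transcripts in each library (points), with mean and SD of each group of 3 libraries. FLT4-201 lies at 5.19 to 6.04 TPM in SCR1 and at 10.6 to 13.1 TPM in KO, and the short FLT1-207 exceeds the full-length FLT1-201 in every library.

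The co-receptors did not pass the test. NRP2 (ENSG00000118257.17, chr2:205681990-205798133, plus strand), which pairs with FLT4 in lymphatic vessels, was measured at 49.3, 44.7 and 42.0 CPM in SCR1, 43.9, 44.8 and 45.2 CPM with sgRNA_96, and 42.2, 47.5 and 48.6 CPM with sgRNA_97. The groups overlapped fully, and the log2 fold change was -0.00 (95% interval -0.13 to 0.13, adjusted p = 0.999), an interval that holds no change beyond 0.13 in either direction. NRP1 (ENSG00000099250.18, chr10:33177492-33336262, minus strand), a co-receptor for VEGFA, was scarce, with 34 to 51 counts per library. It stood at 1.73, 2.39 and 1.84 CPM in SCR1, 2.14, 2.33 and 2.28 CPM with sgRNA_96, and 2.51, 2.11 and 2.97 CPM with sgRNA_97. Its log2 fold change was 0.27 (95% interval -0.19 to 0.73, adjusted p = 0.409), an interval wide enough to hold both a small fall and a rise of 0.73.

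Within NRP2, the form of 926 residues, NRP2-203, held 53.6 ± 5.91% of the counts in SCR1 (SD, n = 3; 48.3 to 60.01%) and 66.7 ± 4.91% in KO (SD, n = 6; 60.6 to 72.6%), without overlap. The form NRP2-204, of 931 residues, is nearly identical to it and held 15.4 ± 9.80% in SCR1 and 5.93 ± 4.32% in KO. Taken as a sum, these forms held 66.1 to 74.0% in SCR1 and 69.5 to 74.0% in KO and overlapped, so the difference in NRP2-203 was not seen in the sum. For NRP1 the main form, NRP1-206, took from 0 to 100% of the counts among the libraries, and its forms were not compared.

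Ligands were present but did not pass the test either. VEGFA (ENSG00000112715.26, chr6:43770184-43786487, plus strand) was measured at 32.6, 31.4 and 34.6 CPM in SCR1, 33.0, 35.2 and 32.2 CPM with sgRNA_96, and 29.9, 39.1 and 33.6 CPM with sgRNA_97. Its log2 fold change was 0.04 (95% interval -0.11 to 0.20, adjusted p = 0.724), and sgRNA_97 held both the lowest and the highest library. VEGFB (ENSG00000173511.10, chr11:64234584-64239264, plus strand) stood at 46.5, 40.5 and 47.6 CPM in SCR1, 39.8, 40.4 and 37.8 CPM with sgRNA_96, and 41.2, 45.3 and 44.4 CPM with sgRNA_97. Its log2 fold change was -0.12 (95% interval -0.26 to 0.03, adjusted p = 0.258), and with sgRNA_96 alone -0.19 (adjusted p = 0.107). Of NRP1, NRP2, VEGFA and VEGFB, edgeR and DESeq2 each called 0 in the comparison of all 6 KO libraries with SCR1, and 0 had an unadjusted p under 0.05 there. With sgRNA_96 alone VEGFB had an unadjusted p of 0.0197.

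PGF (ENSG00000119630.14, chr14:74941834-74955626, minus strand), a ligand of FLT1, had 11, 3 and 2 counts in SCR1, 7, 11 and 9 with sgRNA_96, and 5, 2 and 2 with sgRNA_97, too few for a comparison. VEGFC (chr4:176683538-176792922), the main ligand of FLT4, was at 0 counts in all libraries, as was its other ligand VEGFD. KDR (chr4:55078481-55125595) was at 0 as well. The ligands detected were thus those that bind FLT1, while for FLT4 no ligand RNA was detected at this depth. Gene models that overlap KDR, NRP1, NRP2, VEGFA and VEGFC on the annotation all had 0 counts.

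Ranked by TPM, the SCR1 order was VEGFB (65.1 ± 4.49, SD, n = 3), VEGFA (20.2 ± 4.76), FLT1 (12.2 ± 2.01), NRP2 (11.9 ± 0.594), FLT4 (9.93 ± 1.47), NRP1 (0.641 ± 0.241) and PGF (0.228 ± 0.129). FLT1, NRP2 and FLT4 overlapped with their neighbours in this order. In KO the order was VEGFB (64.8 ± 8.50, SD, n = 6), VEGFA (19.1 ± 2.99), FLT4 (18.9 ± 0.973), NRP2 (11.2 ± 1.04), FLT1 (8.98 ± 0.863), NRP1 (1.03 ± 0.528) and PGF (0.356 ± 0.232). FLT4 thus went from the fifth place to the third and there overlapped VEGFA. Short transcripts weigh heavily on this scale: VEGFB-204, a retained-intron transcript of 663 bases, made up 42.6 of the 65.1 TPM of VEGFB in SCR1, and FLT4-201 made up 5.65 of the 9.93 TPM of FLT4. Likewise the retained-intron transcript VEGFA-215 held 40.0% of VEGFA counts.

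The neighbourhood of FLT4 was then examined. Within 500 kb of the gene, 4 other protein-coding genes passed the filter. MAPK9, a stress-activated kinase, had a log2 fold change of -0.01 (95% interval -0.12 to 0.11). CNOT6, a subunit of the deadenylase complex, had -0.02 (-0.12 to 0.09). MGAT1, an enzyme of N-glycan synthesis, had -0.03 (-0.15 to 0.09), and the zinc finger gene ZFP62 had 0.11 (-0.02 to 0.24). edgeR and DESeq2 called 0 of the 4, and 0 had an unadjusted p under 0.05. The other 9 protein-coding neighbours had 0 counts in every library.

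**Figure D4:**
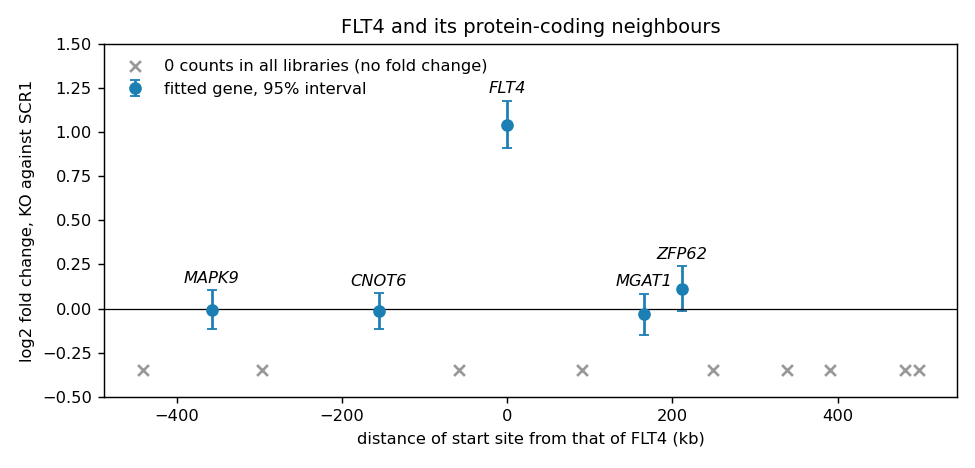
Log2 fold change of KO against SCR1 with 95% interval, plotted against the distance in kb of each gene's start site from that of FLT4; crosses mark genes with 0 counts in all libraries, drawn at an arbitrary height. FLT4 lies at 1.04 and the 4 measured neighbours between -0.03 and 0.11.

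Across the 9 libraries, the genes whose log2 CPM followed that of FLT4 most closely were SH3BP5, which binds the kinase BTK (Pearson r = 0.996), the transcription factor gene MLXIP (0.994), the myosin gene MYO18A (0.989), the antisense RNA SOCS2-AS1 (0.989) and the peroxidasin gene PXDN (0.989). Reads of SOCS2-AS1 and of genes on the opposite strand cannot be told apart if strand was not used in counting. The genes compared were 12960 with a mean of at least 1 CPM, and 111 of them had r over 0.95. The points share the step between SCR1 and KO, which largely sets such values. Over the 6 KO libraries alone, r was 0.849 for SH3BP5, 0.784 for MLXIP, 0.778 for MYO18A, 0.550 for SOCS2-AS1 and 0.281 for PXDN. These genes were picked by r over the 9 libraries, which include these 6, so the values are a description. SH3BP5 went from 29.9 ± 0.228 CPM in SCR1 (SD, n = 3) to 52.1 ± 1.83 CPM in KO (SD, n = 6). FLT1 had r = -0.843 with FLT4 over 9 libraries and -0.210 over the 6 KO libraries.

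The genes that carry VEGF receptor signals inside the cell were widely expressed, with 67 of 69 tested. Of these 11 rose and 6 fell, 25.4% against 20.7% of all genes, and the median log2 fold change was 0.03 against 0.00 over all genes. Without SCR1 replicate 1 the count of 17 became 7, and the count over all genes went from 2984 to 1503. FYN, a SRC family kinase, rose by 0.41 (SE 0.06, adjusted p = 0.000179), from a mean of 68.6 ± 6.57 CPM in SCR1 (SD, n = 3) to 91.1 ± 3.73 CPM in KO (SD, n = 6). HRAS fell by 0.48 (adjusted p = 0.00154), from 23.8 ± 1.96 to 17.1 ± 1.93 CPM, and SPHK1, which makes sphingosine 1-phosphate, fell by 0.55 (adjusted p = 0.0129), from 6.16 ± 0.916 to 4.20 ± 0.360 CPM.

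Of the 7 genes that process VEGFC into its active form, 3 were tested and edgeR and DESeq2 called 0, with 2 at an unadjusted p under 0.05. Of 12 semaphorins and plexins, the other ligands and partners of the neuropilins, 5 were tested, both tools called 0 and 0 had an unadjusted p under 0.05. Among 11 related receptor tyrosine kinases 6 were tested and 1 passed, 16.7% against 20.7% of all genes: TIE1, the orphan partner of the angiopoietin receptor, rose by 0.36 (adjusted p = 0.0189). VEGFA is a target of the hypoxia factor HIF, and of 13 other tested HIF targets 3 rose and 2 fell, 38.5% called against 20.7% of all genes. LDHA, which makes lactate, fell by 0.33 (adjusted p = 0.000101) and the glycolytic gene PGK1 fell by 0.15 (adjusted p = 0.0194), while the mitophagy gene BNIP3L rose by 0.30 (adjusted p = 0.0115) and MXI1, a MYC antagonist, rose by 0.26 (adjusted p = 0.0131).

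**Figure D5:**
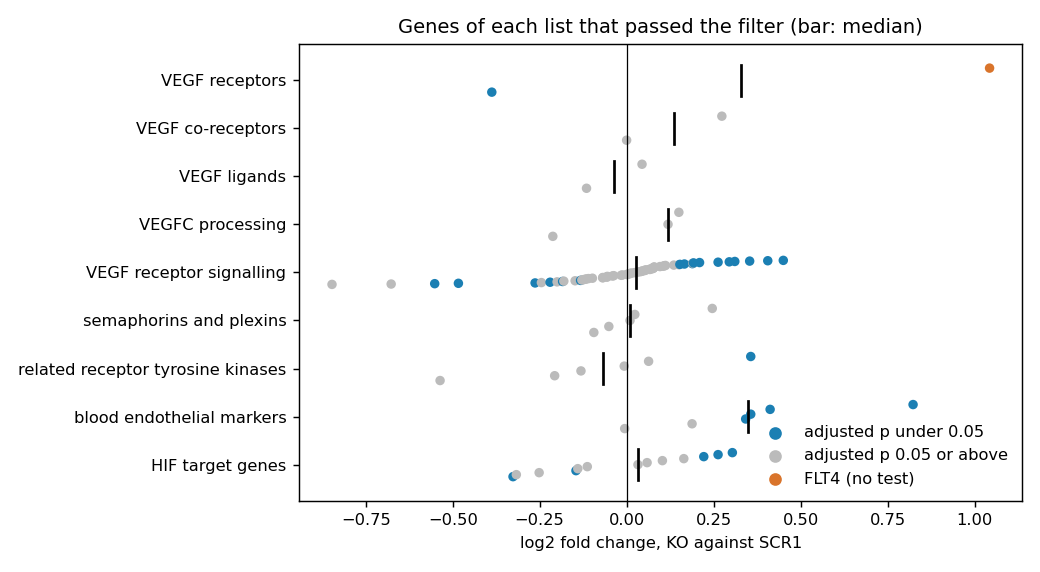
Log2 fold change of KO against SCR1 for each tested gene of 9 lists (points), with the list's median as a bar; blue points passed the edgeR test at an adjusted p of 0.05, grey points did not, and FLT4 in orange was not tested. The signalling genes spread on both sides of 0 with a median of 0.03.

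FLT4 is a marker of lymphatic endothelium, and the defining genes of that tissue were absent: of 6 lymphatic endothelial markers 0 passed the filter, PROX1, CCL21 and RELN had 0 counts in all libraries, and the list summed to at most 0.315 CPM. Among 16 blood endothelial markers CDH5, CLDN5, SOX17 and PLVAP had 0 counts and PECAM1 reached at most 0.163 CPM. The list's sum was nonetheless higher in KO, 617 to 685 CPM against 485 to 520 CPM in SCR1, and 4 of its 6 tested genes rose and 0 fell, where 10.1% of all genes rose. Most of that sum lay in ERG, ENG and EGFL7, so it largely restates these called genes. Their means were 275.6, 125.9 and 43.6 CPM in SCR1 and 349.5, 167.8 and 77.2 CPM in KO. EGFL7, a secreted protein gene, rose by 0.82 (adjusted p = 4.22e-05), the TGF-beta co-receptor gene ENG by 0.41 (adjusted p = 6.80e-05), TIE1 as above and the ETS factor gene ERG by 0.34 (adjusted p = 4.78e-05). These genes are also known from blood stem and progenitor cells. Their part in the FLT4 difference was not tested.

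Other markers that moved with the groups are given for the same reason. Of the B lymphoblast markers other than CD34, 3 of 11 rose and 0 fell, where 10.1% of all genes rose, and the whole list summed to 5108 to 5299 CPM in SCR1 and 5581 to 5870 CPM in KO. MME rose by 0.50 (adjusted p = 2.45e-06), the B cell adaptor gene BLNK by 0.34 (adjusted p = 0.000294) and the terminal transferase gene DNTT by 0.26 (adjusted p = 0.000328). CD34 had 1 or 2 counts in SCR1 and 7 to 13 in KO, and as it passed the filter through the KO libraries alone, its difference is given as counts. In the myeloid list of 6 genes 1 was tested, the granule enzyme gene MPO, which rose by 1.08 (adjusted p = 0.000894) and was at 2.75 ± 0.164 CPM (SD, n = 3) in SCR1. The stromal list of 6 genes had 1 tested, PDGFRB, with a log2 fold change of -0.13 and no call in edgeR or DESeq2, nor at an unadjusted p under 0.05. The part of these markers in the FLT4 and FLT1 differences was not tested.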

How the data were processed

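RNA of 9 HAL-01 libraries was sequenced from poly(A) libraries. The authors trimmed the reads, aligned them with STAR to GRCh38 and quantified transcripts with Salmon 1.10.1 (processing notes of the submitters). They deposited estimated counts per transcript, without normalization, and TPM values, which Salmon scales to a fixed total. All 252835 transcript identifiers matched GENCODE release 44, and coordinates and residue numbers are from that release. Whether counting used strand is not given in the sources used here. Of the counts above 0, 87.8% were not whole, so counts were summed per gene and rounded.

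Genes were kept by filterByExpr (minimum count 10), scaled by TMM, and tested in edgeR 4.0.16 (R 4.3.3) by quasi-likelihood; p-values of 14436 genes were adjusted by Benjamini-Hochberg and called under 0.05. Guides were compared in a fit with 3 groups. All adjusted p-values are from edgeR unless another tool is named. CPM values are counts over the TMM-scaled library size, times 1000000. Alternatives were DESeq2 1.42.0, DESeq2 size factors, no filter, a gene length offset, the replicate number as a block, each library left out, and limma 3.58.1 on log2(TPM + 1) or log2(TPM + 0.1). Fits were tested on simulated data.

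The members and lists were chosen with earlier results of these data known. Named genes are the 9 members, MEF2C, VEGFD, up to 4 genes per list with the largest change among called genes without overlap, neighbours within 500 kb, the 5 genes most correlated with FLT4, and transcripts with at least 5% of a member's counts. FLT4-202 and FLT4-206, the marker genes at or near 0, and PDGFRB were named after their values were seen. The chi-square of counts over its degrees of freedom was 4.36 to 8.82 between replicates, so no library was a copy of another. A gene that the rule names is not reported here. Guide sequences are the study's own.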

Additional observations from a re-analysis of the deposited data

Results flagged for a closer look

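In 16 values checked over the SCR1 and KO groups for a library far from the rest, 1 stood apart, where chance alone would give about 0.8. MEF2C in sgRNA_97 replicate 1 was at 552.8 CPM, with the other 5 KO libraries at 495 to 510 CPM, and its gap to the nearest of these was 0.737 of the range. FLT4 had its lowest KO value, 56.4 CPM, in the same library, still above all SCR1 libraries.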

How the results depend on the processing

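FLT4, chosen for its rise in these same libraries, stayed higher in KO under all 17 alternatives, which is a description and not a test. Its log2 fold change was 1.02 to 1.07 with 1 library left out, 0.94 with a gene length offset, 0.87 on log2(TPM + 1) with or without the filter and 0.93 on log2(TPM + 0.1). FLT1 fell in all 17 and passed the test in 16, with -0.47 to -0.29 when a library was left out. On log2(TPM + 1) without the filter it gave -0.39 with an adjusted p of 0.112. MEF2C passed with DESeq2 (-0.12, adjusted p = 0.0270) and without sgRNA_97 replicate 1. With 1 library left out it was -0.14 to -0.11, and its adjusted p ranged from 0.0143 to 0.187 over all alternatives. VEGFB kept its direction in all 17 and never passed. NRP1 did the same in the 15 alternatives that included it. Its mean of 0.898 TPM lay below the minimum of 1 in the filtered TPM fits. NRP2 and VEGFA never passed and changed sign. NRP2 was 0.00015 with DESeq2 size factors, 2.7e-05 with DESeq2 and -0.053 to 0.066 with a library left out. VEGFA was -0.079 with the length offset, -0.066 on log2(TPM + 1) with or without the filter and -0.069 on log2(TPM + 0.1). The causes were not tested.

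The counts of called genes behind the background shares moved more. For KO against SCR1, 2984 genes became 1526 with the length offset, 1195 and 648 on log2(TPM + 1) with and without the filter, and 1222 on log2(TPM + 0.1). For sgRNA_96 the 1615 became 659, 440, 201 and 451, and for sgRNA_97 the 2181 became 927, 679, 311 and 696, in the same order. Between the guides the 3 became 106 without the filter, 8 with DESeq2 and 1 with the length offset. On log2(TPM + 1) they became 0 (541 at an unadjusted p under 0.05) and, without the filter, 1, and on log2(TPM + 0.1) they became 0 (535). With a library left out the counts were 1503 to 3547 for KO, 760 to 2027 for sgRNA_96, 987 to 2501 for sgRNA_97 and 1 to 5 between guides. The KO count was 1503 without SCR1 replicate 1 and 1813 without SCR1 replicate 4. The 17 signalling genes, recomputed as an addition chosen after seeing the data, became 2 to 20.

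The replicate numbers did not pair the libraries: deviations of libraries with the same number correlated at -0.0636 to 0.0511, and 1 of 9 correlated best with its own number. With the replicate block, 2936, 1576 and 2082 genes were called for KO, sgRNA_96 and sgRNA_97 and 1 between the guides. FLT4 was at 1.04 and FLT1 at -0.39 (adjusted p = 0.00414) with this block, and it changed no call of a family gene.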
